A study of Mus musculus with 12 samples.

Results

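AP-1 is the transcription factor formed by proteins of the Fos and Jun families, and the genes described here are its 7 mouse family members, Fos, Fosb, Fosl1, Fosl2, Jun, Junb and Jund, with the stress factors Atf3 and Maff. They were chosen by name, as the rows of the deposited expression table that carry these 9 symbols, out of 55487 genes. Each symbol had 1 row. Expression was measured by paired-end RNA sequencing of poly(A)-selected libraries from mouse hearts, all labelled WT, with 3 libraries in each of 4 groups. The I/R+B12 hearts had 45 min of occlusion of the left anterior descending coronary artery followed by 24 h of reperfusion (I/R), in mice that drank water with 50 mg/L vitamin B12, about 4 mL a day, during the 7 days up to surgery. The I/R hearts had the same occlusion and reperfusion in mice on normal water. The Sham+B12 hearts came from mice with the same B12 water and an operation without occlusion, and the Sham hearts from mice on normal water with that operation. All 4 groups had anesthesia, left thoracotomy and mechanical ventilation. Age, sex and strain are not given in the sources used here, and neither is the part of the heart that was taken. No time from operation to collection is listed for the sham hearts. Nothing says that libraries share an animal.

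Fos and Jun proteins carry a basic region that binds DNA and a leucine zipper that joins them in dimers. Fos proteins need a Jun partner, whereas Jun proteins can also pair with each other. Many of these genes are immediate early genes: growth factors, stretch, oxidants and cytokines act through MAP kinases and raise their transcripts before any new protein is made, and the transcripts then decay quickly. In the heart, Fos, Jun and Atf3 are known to be induced by ischemia, reperfusion and pressure load. Atf3 belongs to the ATF/CREB family and also forms dimers with Jun proteins. Maff is a small Maf protein, which has the zipper but lacks an activation domain of its own.

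ATF/CREB and AP-1 proteins bind closely related sites, and such sites lie in the promoters of some of these genes. RefSeq promoter sequences (GRCm38.p6, 250 bases before to 50 bases after each start) were matched for 8 of the 9 genes, with 3 starts for Maff. Both strands were searched for TGACGT (the core of the cAMP response element), TGACNTCA (the longer element, which overlaps the first), TGANTCA (the AP-1 site) and the CArG box bound by SRF. TGACGT was found in 3 of the 8 genes and in 7.51% of all 32851 promoters, and TGACNTCA in 2 of the 8 genes and in 8.83% of promoters. TGANTCA was found in none of the 8 (7.81% of promoters) and the CArG box in none (1.63%). A gene counted once for a match at any of its starts, whereas the percentages count promoters. The starts used here need not be those of the gene coordinates given below. For Jund the 100 bases before the start end at chr8:70697738, ahead of those coordinates, and the Atf3 start lies inside them. A match is a description of letters, and their absence from this window says nothing of the factor. The 100 bases before the start are shown for the genes with a match, 5′ to 3′ in the direction of the gene, with the matched letters in capitals.
Fos, chr12:85473790-85473889, plus strand: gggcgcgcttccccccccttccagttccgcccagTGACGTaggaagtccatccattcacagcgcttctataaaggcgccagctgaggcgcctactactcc
Jun, chr4:95052223-95052322, minus strand: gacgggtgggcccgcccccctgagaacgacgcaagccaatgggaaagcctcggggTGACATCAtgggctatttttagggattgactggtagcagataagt
Atf3, chr1:191183334-191183433, minus strand: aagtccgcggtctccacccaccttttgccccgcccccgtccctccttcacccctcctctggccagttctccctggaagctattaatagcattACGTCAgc
Maff, second start, chr15:79347420-79347519, plus strand: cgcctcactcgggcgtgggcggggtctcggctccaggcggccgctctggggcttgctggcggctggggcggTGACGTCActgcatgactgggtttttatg
In Fos the match lay 66 to 61 bases before the start, in Jun 45 to 38, in Atf3 8 to 3 on the opposite strand, and in Maff 29 to 22. The third Maff start also had a match, 45 to 38 bases before it.

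The deposited values are FPKM, fragment counts scaled to transcript length and library size, so levels can be set side by side between genes. Depth, estimated from the steps between low values, was 24.0 to 28.25 M fragments per library. Cardiomyocyte markers were high in every library (summed FPKM of 10 markers from 46800 to 73220), as the tissue label says. The values of 2 libraries, labelled I/R 3 and Sham 3, stood apart from their labelled groups. I/R+B12 3 also differed from its group, with a summed neutrophil marker level of 108 FPKM, against 742 and 2123 in I/R+B12 1 and 2. Its cardiomyocyte sum was 71010 FPKM, against 50680 and 55050. It was left out only in the fits without 1 library. The library labelled I/R 3 had a summed neutrophil marker level of 16 FPKM, against 1242 and 1201 in I/R 1 and 2. The library labelled Sham 3 had 67.3, against 6.54 and 11.3 in Sham 1 and 2, and its summed atrial marker level was 3176 FPKM, against 337 and 555. Labels were kept as given. For the AP-1 genes, the limma comparisons below that include Sham 3 or I/R 3 also give values without them, though not for every gene. The permutation tests of Fosb and of the Fos family share were run with all libraries only. Differences were tested with limma on log2(FPKM + 1) in all 12 libraries, over the 13001 genes that reached 1 FPKM in 3 libraries or more, and a gene was called at a Benjamini-Hochberg adjusted p under 0.05. Of the 9 genes, 8 were tested. Fosb reached an FPKM of 1 in 1 library and was not, and Fosl1 was tested because it reached it in 4.

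With B12, the AP-1 genes were higher after I/R than after sham. Junb, Fosl2, Maff and Jund rose, while Fos, Fosl1, Atf3 and Jun had higher means without passing the test; all 8 differences were above 0, as were those of 48.1% of all tested genes. All 3 I/R+B12 libraries lay above all 3 Sham+B12 libraries for each of the 9 genes, where 19.1% of all tested genes had such higher values without overlap. Of the 8 tested genes, 4 were called higher and 0 lower, and over all tested genes 6.78% were called higher and 3.62% lower. Their median difference was 2.06 on the log2 scale, against -0.02 for all tested genes. Because FPKM comes from whole tissue, more cells that carry a transcript and more transcript per cell cannot be told apart.

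**Figure D1:**
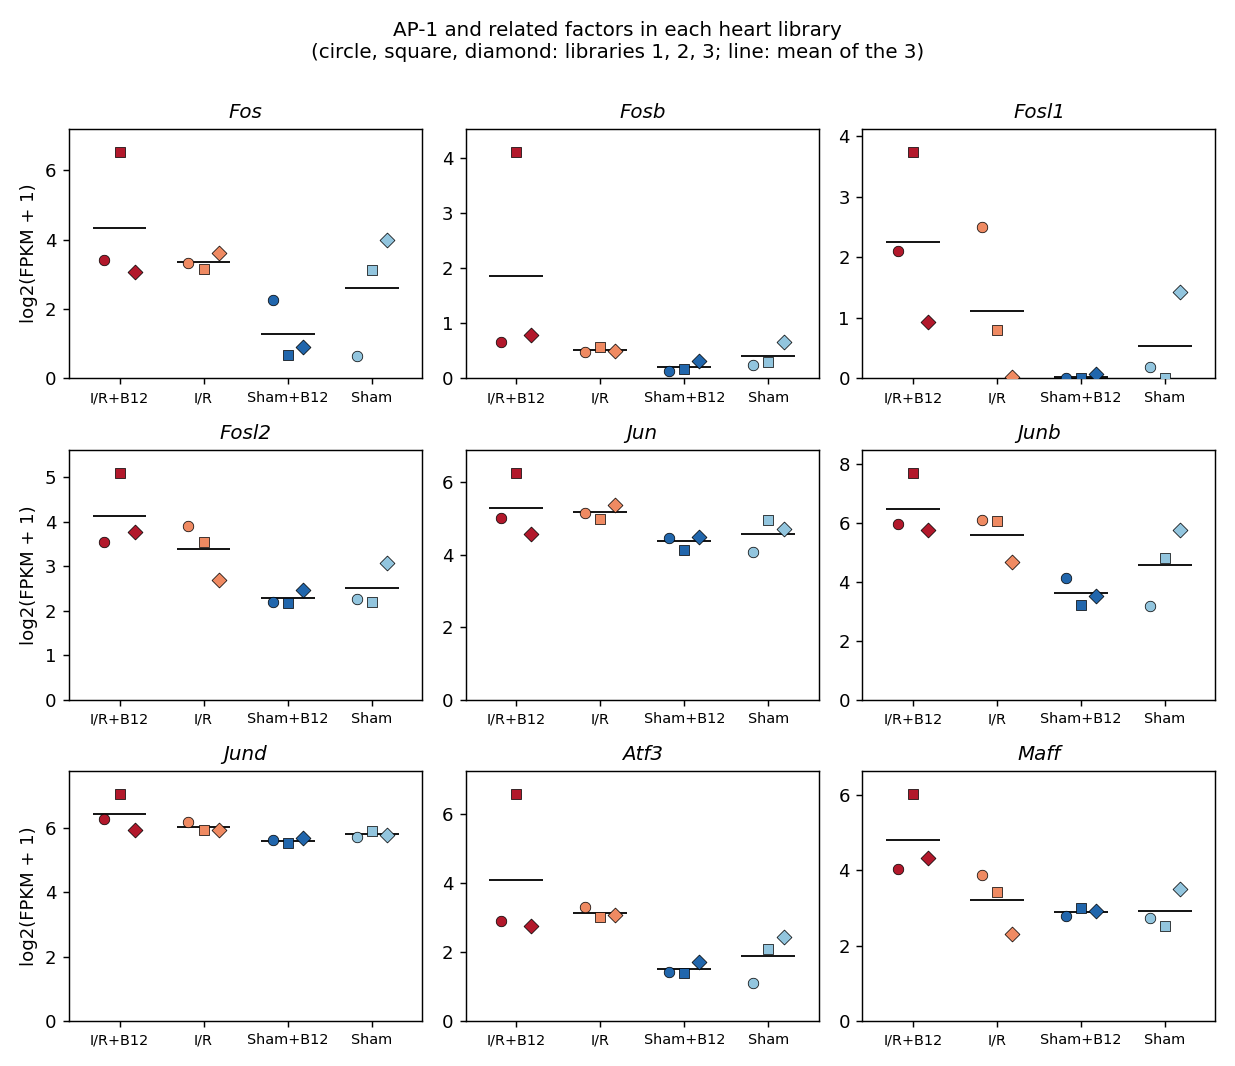
Level of each gene in every library as log2(FPKM + 1), with 1 point per library and a line at the mean of the 3 libraries of a group. I/R+B12 2 (square) is the highest point in all 9 panels, and the 3 I/R+B12 points lie above the 3 Sham+B12 points in each panel.

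Among the Jun genes, Junb moved most. Junb, which can act in place of or against Jun at the same sites, is encoded at chr8:84974484-84978718 (minus strand, mm10, ENSMUSG00000052837) by a longest transcript with 1 exon. It had 61.6, 209.6 and 53.8 FPKM in I/R+B12 hearts, against 16.7, 8.35 and 10.4 FPKM in Sham+B12 hearts. The groups did not overlap, and I/R+B12 2 was more than the other I/R+B12 libraries together. The difference was 2.86 ± 0.67 on the log2 scale (SE, 95% interval 1.38 to 4.34, limma adjusted p = 0.0306). On normal water it had 67.9, 66.2 and 24.5 FPKM in I/R hearts, against 8.03, 27.1 and 53.9 FPKM in Sham hearts. There the groups overlapped, through the high library labelled Sham 3 and the low one labelled I/R 3. The difference was 1.03 ± 0.67 (SE, adjusted p = 0.537), and it was 2.10 without these libraries (adjusted p = 0.175).

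Jund, the Jun gene known for steady expression in resting cells, is encoded at chr8:70698949-70700616 (plus strand, mm10, ENSMUSG00000071076) by a single exon. Its levels were 75.7, 131.8 and 60.0 FPKM in I/R+B12 hearts, against 48.1, 44.7 and 50.1 FPKM in Sham+B12 hearts. It moved least of the called genes, by 0.81 ± 0.23 on the log2 scale (SE, interval 0.32 to 1.31, limma adjusted p = 0.0450). On normal water it had 70.8, 60.2 and 59.9 FPKM in I/R hearts, against 51.3, 59.1 and 53.8 FPKM in Sham hearts. Those groups did not overlap, although the gap between I/R 3 and Sham 2 was under 1 FPKM. The difference of 0.21 ± 0.23 was not called (SE, adjusted p = 0.712).

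Jun, the founding member of the family and the main nuclear substrate of the JNK kinases, is encoded at chr4:95049034-95052222 (minus strand, mm10, ENSMUSG00000052684). It had 31.5, 76.1 and 23.1 FPKM in I/R+B12 hearts, against 21.1, 16.6 and 21.7 FPKM in Sham+B12 hearts. I/R+B12 3 was close to the highest Sham+B12 library. The difference of 0.92 ± 0.36 did not pass (SE, interval 0.12 to 1.72, limma adjusted p = 0.110). On normal water Jun had 34.9, 30.9 and 40.7 FPKM in I/R hearts, against 15.8, 30.1 and 25.3 FPKM in Sham hearts. The groups did not overlap, but I/R 2 and Sham 2 were nearly equal. That difference was 0.60 ± 0.36 (SE, adjusted p = 0.509). Unlike Junb, Jun was highest of the I/R hearts in the library labelled I/R 3.

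Of the Fos genes, Fosl2 was called. Fosl2 encodes Fra-2, a Fos protein that lacks the strong activation domain of Fos, and lies at chr5:32135801-32157842 (plus strand, mm10, ENSMUSG00000029135). It had 10.7, 33.4 and 12.6 FPKM in I/R+B12 hearts, against 3.61, 3.52 and 4.49 FPKM in Sham+B12 hearts. Its Sham+B12 libraries were tightly grouped, and the lowest I/R+B12 library was above all of them. It rose by 1.86 ± 0.41 on the log2 scale (SE, interval 0.95 to 2.77, limma adjusted p = 0.0277), which was the smallest adjusted p among the AP-1 genes. On normal water it had 14.0, 10.7 and 5.51 FPKM in I/R hearts, against 3.84, 3.62 and 7.45 FPKM in Sham hearts. The library labelled I/R 3 was below the library labelled Sham 3, and the others did not overlap. The difference was 0.87 ± 0.41 (SE, adjusted p = 0.436), and 1.49 without these libraries (adjusted p = 0.147).

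Fos, the partner that gives AP-1 its most transient activity, is encoded at chr12:85473890-85477273 (plus strand, mm10, ENSMUSG00000021250). It had 9.73, 91.9 and 7.34 FPKM in I/R+B12 hearts, against 3.78, 0.59 and 0.86 FPKM in Sham+B12 hearts. I/R+B12 2 was 9.44 times the higher of the other I/R+B12 libraries. The difference was 3.07, with an SE of 0.94, and it was not called (interval 1.00 to 5.14, limma adjusted p = 0.0580). On normal water the I/R hearts were alike, at 8.97, 7.99 and 11.2 FPKM, against 0.58, 7.80 and 14.8 FPKM in Sham hearts, which ranged from the lowest level of all 12 libraries to the second highest. The difference was 0.77 ± 0.94 (SE, adjusted p = 0.749), -0.20 with Sham 1 left out, and 1.34 with Sham 3 and I/R 3 left out (adjusted p = 0.575).

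Fosl1, which encodes the Fos protein Fra-1, is at chr19:5447547-5455946 (plus strand, mm10, ENSMUSG00000024912) and had 3.29, 12.4 and 0.90 FPKM in I/R+B12 hearts. It was listed at 0, 0 and 0.05 FPKM in Sham+B12 hearts, where 1 fragment stands for 0.0222 to 0.026 FPKM at the estimated depth. The difference on the log2(FPKM + 1) scale was 2.23 ± 0.72 (SE, limma adjusted p = 0.0651). It was 4.93 with a pseudocount of 0.1 (adjusted p = 0.0446). On normal water Fosl1 ran from 4.68 and 0.75 to 0.02 FPKM in I/R hearts 1, 2 and 3, against 0.14, 0 and 1.70 FPKM in Sham hearts. These groups overlapped in part, with I/R 1 the highest of the 6 and Sham 2 the lowest. The difference was 0.57 ± 0.72 (SE, adjusted p = 0.756), and 1.56 with Sham 3 and I/R 3 left out (adjusted p = 0.339).

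Fosb, a Fos gene with a truncated splice form, is at chr7:19302696-19310051 (minus strand, mm10, ENSMUSG00000003545). It had 0.59, 16.3 and 0.73 FPKM in I/R+B12 hearts, against 0.10, 0.13 and 0.24 FPKM in Sham+B12 hearts. I/R+B12 2 was 22.3 times the next library of the 12, the largest such gap among the AP-1 genes. The exact permutation test of log2(FPKM + 1), two-sided, gave p = 0.1, the smallest that 3 libraries against 3 allow. On normal water Fosb had 0.39, 0.49 and 0.42 FPKM in I/R hearts, against 0.19, 0.23 and 0.58 FPKM in Sham hearts (exact permutation p = 0.4). With the libraries of both waters shuffled within water, the I/R difference of 0.88 on the log2 scale had an exact permutation p of 0.02, with 0.005 as the smallest possible.

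Atf3, an early responder to many kinds of cell stress, is at chr1:191170296-191218039 (minus strand, mm10, ENSMUSG00000026628). It had 6.50, 94.4 and 5.67 FPKM in I/R+B12 hearts, against 1.65, 1.60 and 2.27 FPKM in Sham+B12 hearts. I/R+B12 2 was 14.5 times the higher of the other I/R+B12 libraries, which lay close together. The difference was 2.58 ± 0.80 (SE, interval 0.83 to 4.32, limma adjusted p = 0.0587). On normal water Atf3 had 8.80, 7.11 and 7.42 FPKM in I/R hearts, against 1.13, 3.21 and 4.44 FPKM in Sham hearts. Here the groups did not overlap, and the I/R libraries were within 2 FPKM of each other, but the difference of 1.26 ± 0.80 was not called (SE, adjusted p = 0.522). The SE is shared by all 4 groups in the fit, so the spread of the I/R+B12 libraries enters it.

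Maff, whose protein pairs with other bZIP factors such as NRF2, is at chr15:79346621-79359076 (plus strand, mm10, ENSMUSG00000042622). It had 15.3, 64.3 and 19.1 FPKM in I/R+B12 hearts, against 5.92, 7.04 and 6.53 FPKM in Sham+B12 hearts. It rose by 1.89 ± 0.51 (SE, interval 0.78 to 3.0, limma adjusted p = 0.0412). On normal water it had 13.6, 9.79 and 3.99 FPKM in I/R hearts, against 5.68, 4.71 and 10.3 FPKM in Sham hearts. The library labelled I/R 3 was the lowest of all 12 for this gene, and the groups overlapped. The difference was 0.29 ± 0.51 (SE, adjusted p = 0.834), and 1.02 with Sham 3 and I/R 3 left out (adjusted p = 0.356).

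**Figure D2:**
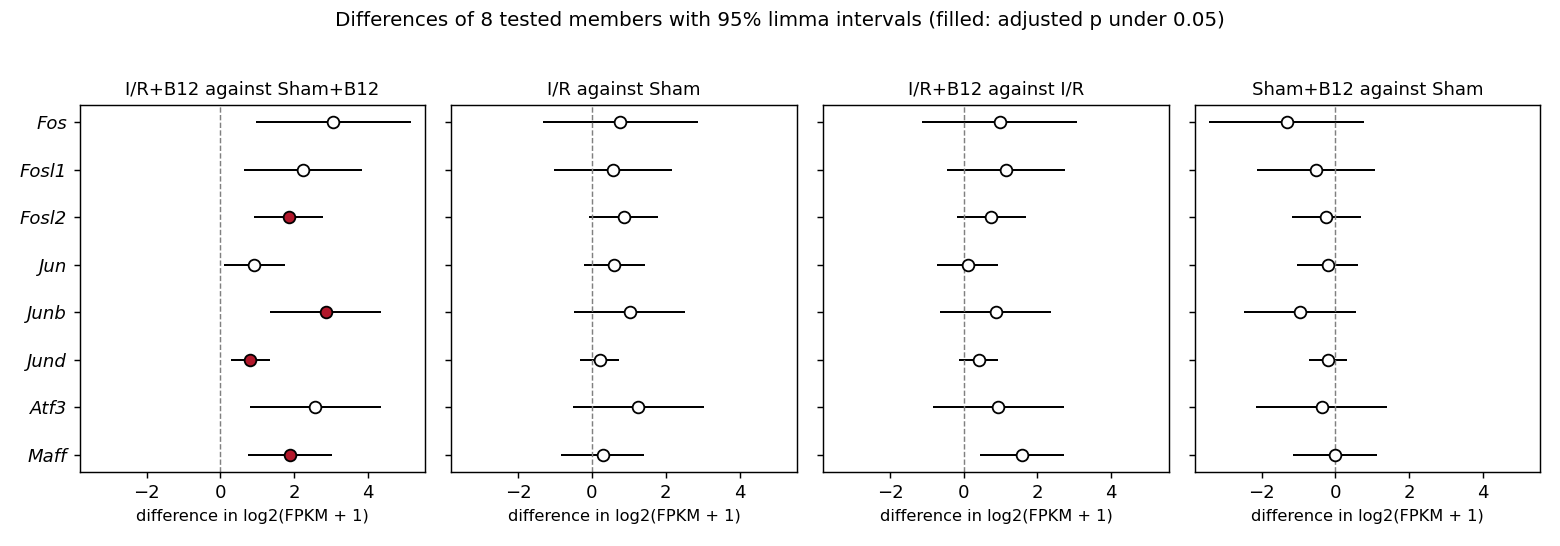
Difference in log2(FPKM + 1) of the 8 tested genes in 4 comparisons, with 95% limma intervals and filled points where the adjusted p was under 0.05. The filled points are Fosl2, Junb, Jund and Maff in I/R+B12 against Sham+B12, and all 8 intervals of that comparison lie above 0.

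On normal water 0 of the 8 tested genes were called in I/R hearts against Sham hearts, with all 8 differences positive, as for 69.1% of all tested genes, and a median of 0.68. Over all genes 0% were called, and 1516 had an unadjusted p under 0.05 (10.6% of genes higher and 1.04% lower), none of them an AP-1 gene. Without overlap, 3 of the 9 genes were higher in I/R (Jun, Jund and Atf3), where 18.8% of all tested genes were. The median of all tested genes was 0.13 higher in I/R, and after scaling by median ratios, where the shift was close to 0, the Jund difference was 0.06 and the Maff difference 0.15. Leaving out Sham 1 gave a Fos difference of -0.20, and leaving out I/R 1 gave -0.12 for Fosl1 and -0.04 for Maff. Leaving out Sham 3 and I/R 3 moved the differences the other way for most genes, to 2.10 for Junb, 1.57 for Atf3, 1.56 for Fosl1, 1.49 for Fosl2, 1.34 for Fos, 1.02 for Maff and 0.24 for Jund, against 0.56 for Jun. None of the 8 was called there either, and 55 genes were called over the whole table.

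The size of the difference under B12 rested in part on 1 library. I/R+B12 2 was the highest of the 12 libraries for 9 of the 9 genes, and for 11.2% of all tested genes. It exceeded the higher of I/R+B12 1 and 3 by between 1.74 times (Jund) and 22.3 times (Fosb). I/R+B12 1 and 3 still lay above all Sham+B12 libraries for all 9 genes. Without I/R+B12 2 the differences were 2.24 for Junb, 1.97 for Fos, 1.49 for Fosl1, 1.37 for Fosl2, 1.32 for Atf3, 1.27 for Maff, 0.49 for Jund and 0.43 for Jun. None was then called (adjusted p from 0.0735 for Atf3 to 0.334 for Jun), and 49 genes were called over the whole table. Leaving out any 1 of the 3 Sham+B12 libraries also left 0 AP-1 genes called, and it left at most 32 genes called over the whole table. There were 6 AP-1 genes called with I/R+B12 1 left out, where 3833 genes were called over the whole table, and 8 with I/R+B12 3 left out, where 1586 were, against 1352 with all libraries. With I/R 2 or Sham 2 left out there were 2 called, Fosl2 and Junb (644 and 838 over the whole table). Those libraries are not in this comparison, but they enter the estimate of the spread that all groups share. With I/R+B12 2, Sham 3 and I/R 3 all left out, a set chosen after seeing the data, Fosl2, Maff, Junb and Atf3 were called (differences of 1.37, 1.27, 2.24 and 1.32) among 922 genes of the whole table, and Fosl1 fell below the level needed for testing.

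**Figure D3:**
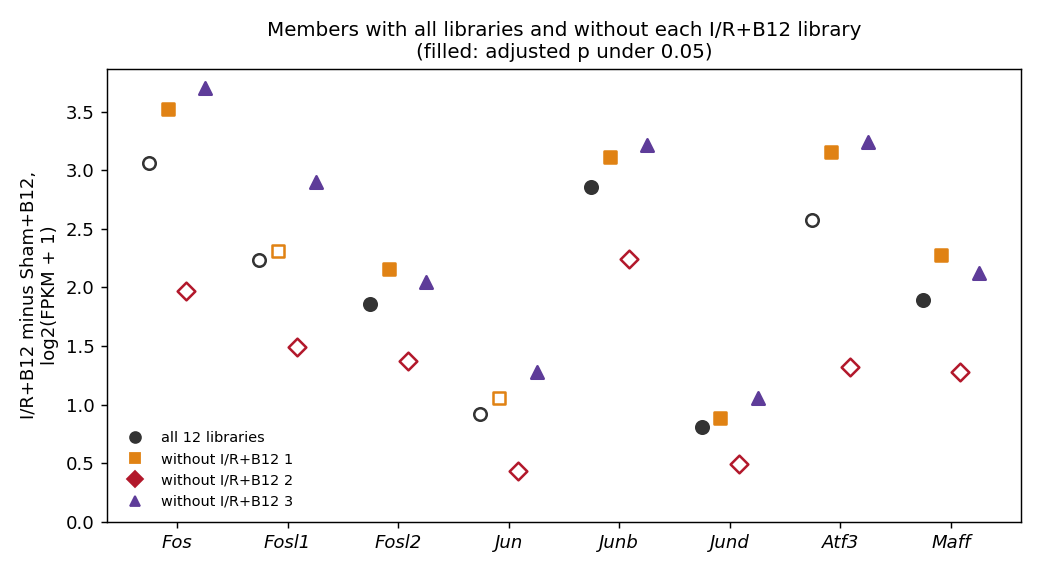
Difference of I/R+B12 minus Sham+B12 in log2(FPKM + 1) for the 8 tested genes, with all libraries and without each I/R+B12 library in turn; filled symbols have an adjusted p under 0.05. The values without I/R+B12 2 (diamonds) are the lowest for each gene and all open, at 0.43 to 2.24.

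The question of the study, from its title, is whether B12 lessens injury, so the AP-1 genes were also compared between waters. In I/R+B12 against I/R, 0 of 8 were called (0% of all genes), with positive differences for all 8 (28.2% of all tested genes) and a median of 0.91, against -0.21 for all tested genes. At an unadjusted p under 0.05, 3711 genes passed (3.9% of genes higher and 24.6% lower), and Maff was the AP-1 gene among them. Maff had the largest of these differences, 1.59 ± 0.51 (SE, interval 0.48 to 2.70, limma adjusted p = 0.0963), and with Fosb it was the gene whose I/R+B12 libraries all lay above the I/R libraries, where 4.41% of all tested genes did. Its value was 0.97 with I/R+B12 2 left out, 1.15 with I/R 3 left out, and 1.97 with I/R+B12 1 left out, where it was called (adjusted p = 0.0176) together with 4409 genes in all. The other 7 ranged from 0.11 for Jun to 1.14 for Fosl1, with adjusted p of 0.248 to 0.854. For Fos the interval ran from -1.09 to 3.05 and for Jun from -0.69 to 0.91. After scaling by median ratios, where the median of all tested genes was 0, each of the 8 differences was larger. It was 0.36 for Jun, 0.65 for Jund, 1.21 for Fos and 1.82 for Maff, and 0 were called. With I/R+B12 2 left out the differences of Jun, Atf3 and Fos were -0.37, -0.31 and -0.12. With Sham 3 and I/R 3 alone left out, the differences of Fosl1, Fosl2, Junb and Jun were 0.60, 0.41, 0.40 and 0.21. With all 3 libraries left out, those of Fosl2 and Junb were -0.07 and -0.22. These 2 groups were therefore not told apart for the AP-1 genes at this number of libraries.

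In sham-operated hearts, all 8 differences between Sham+B12 and Sham were negative, as for 67.9% of all tested genes, with a median of -0.31, against -0.07 for all tested genes, and 0 were called (0% of all genes; 220 at an unadjusted p under 0.05 by limma, 0.508% of genes higher and 1.18% lower, none of them an AP-1 gene). The largest was that of Fos, at -1.32 ± 0.94 (SE, interval -3.39 to 0.75, adjusted p = 0.999), followed by Junb at -0.96 ± 0.67. Jund was the gene without overlap, with all Sham+B12 libraries below all Sham libraries, where 8.98% of tested genes were. The Sham libraries differed widely among themselves: the library labelled Sham 3 was the highest of the 6 sham-operated hearts for 7 of the 9 genes, and Sham 1 was the lowest of the 3 Sham libraries for 6. Without the library labelled Sham 3, the Fos and Junb differences were -0.62 and -0.36, and those of Maff and Fosl2 were above 0, at 0.28 and 0.04. The Maff difference, -0.01, also lay above 0 with both other scalings (0.06 and 0.08).

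The interaction is the I/R difference with B12 minus that on normal water. It was positive for all 8 genes (36.3% of all tested genes), with a median of 1.46, against -0.14 for all tested genes, and 0 of 8 were called, as for all genes (0%). With limma 1595 genes had an unadjusted p under 0.05 (3.41% of genes higher and 8.86% lower). Maff was the AP-1 gene among them, at 1.60 ± 0.72 (SE, interval 0.03 to 3.18, adjusted p = 0.403). The interaction was 1.83 ± 0.95 for Junb (adjusted p = 0.427) and 2.30 ± 1.33 for Fos (adjusted p = 0.453). With I/R+B12 2 left out that of Maff was 0.99, that of Junb 1.22, that of Fos 1.20, that of Atf3 0.07 and that of Jun -0.16. With Sham 3 and I/R 3 left out, those of Maff, Junb, Fosl1 and Fosl2 were 0.87, 0.76, 0.67 and 0.37. With all 3 libraries left out, Junb was at 0.15 and Maff at 0.25, and Atf3, Jun and Fosl2 were below 0, at -0.25, -0.13 and -0.11. An I/R difference that differs with B12 was therefore not shown for any of them.

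Averaged over both waters, the 6 I/R libraries were compared with the 6 sham libraries. This average holds the same libraries as the I/R comparisons above and adds no independent data. Of the 8 tested genes, 2 were called higher, Junb by 1.94 ± 0.48 (SE, limma adjusted p = 0.0341) and Fosl2 by 1.36 ± 0.29 (SE, adjusted p = 0.0269), where 8.36% of all genes were called higher and 1.71% lower. The other 6 were between 0.51 for Jund and 1.92 for Fos and Atf3, with adjusted p of 0.0522 to 0.0905. Atf3 and Jund were higher in all 6 I/R libraries than in any sham library, where 3.62% of all tested genes were, and neither was called, while for Junb and Fosl2 the libraries overlapped. The averaged difference was above 0 for each of the 8 genes, as for 56.7% of all tested genes, and for each it stayed above 0 in every alternative run that tested it. With I/R+B12 2 left out the 2 genes called were Fosl2 and Atf3, and Junb was not (1.64, adjusted p = 0.0605). With Sham 3 and I/R 3 left out, Junb (2.48, limma adjusted p = 0.00892) and Fosl2 (1.67, adjusted p = 0.0073) were called. So were Maff (1.46, adjusted p = 0.0222) and Fosl1 (1.90, adjusted p = 0.0327), while Fos, Jun, Jund and Atf3 were not. None was called with I/R 1, I/R 2, Sham 1, Sham 2, Sham+B12 1 or Sham+B12 3 left out, and 1, Fosl2, with Sham+B12 2 left out. There were 4 called with I/R 3 left out, 5 with I/R+B12 1 left out and 7 with I/R+B12 3 left out, where 2127, 2701 and 2268 genes were called over the whole table, against 1309 with all libraries.

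The family was also described by the order and the shares of its members. In Sham hearts the mean levels ran from Jund (54.7 ± 3.99 FPKM) over Junb (29.7 ± 23.0), Jun (23.7 ± 7.25), Fos (7.72 ± 7.11), Maff (6.91 ± 3.0), Fosl2 (4.97 ± 2.15) and Atf3 (2.93 ± 1.67) to Fosl1 (0.613 ± 0.944) and Fosb (0.333 ± 0.215; SD, n = 3 for each). The libraries of neighbours in that order overlapped, except that all 3 of Jun lay above all 3 of Fos. By mean, in I/R+B12 hearts Junb came first (108.3 ± 87.8 FPKM), then Jund (89.2 ± 37.7), Jun (43.6 ± 28.5), Fos (36.3 ± 48.1), Atf3 (35.5 ± 51.0), Maff (32.9 ± 27.2), Fosl2 (18.9 ± 12.6), Fosb (5.88 ± 9.04) and Fosl1 (5.52 ± 6.06), again with overlap between neighbours. I/R+B12 2 set part of this order. In I/R+B12 1 and 3 Jund (75.7 and 60.0 FPKM) was above Junb (61.6 and 53.8 FPKM). There Atf3 (6.50 and 5.67 FPKM) was below Maff (15.3 and 19.1 FPKM) and Fosl2 (10.7 and 12.6 FPKM). The share of Fos family transcripts in the summed FPKM of the 7 Fos and Jun genes was 12.6%, 26.9% and 13.6% in I/R+B12 hearts, against 8.02%, 5.74% and 6.42% in Sham+B12 hearts. These did not overlap, and the exact permutation p was 0.1, the smallest possible. On normal water the share was 13.9%, 11.2% and 12% in I/R hearts, against 5.94%, 9.11% and 15.6% in Sham hearts (exact permutation p = 0.5). With both waters together and libraries shuffled within water, the exact permutation p was 0.025, with 0.005 as the smallest possible. Jund made up 39.2%, 23.1% and 37.9% of the sum in I/R+B12 hearts, against 51.5%, 60.5% and 57.0% in Sham+B12 hearts, and Junb 31.9%, 36.7% and 33.9%, against 17.9%, 11.3% and 11.9%. On normal water the shares of both genes overlapped between the groups. There Jund reached 42.1% in I/R hearts, against 64.2%, 46.2% and 34.2% in Sham hearts. Junb was 33.7%, 37.4% and 17.2% in I/R hearts, against 10.1%, 21.2% and 34.2% in Sham hearts. In the library labelled I/R 3 Junb was 17.2% and Jun 28.6%, where I/R 1 and 2 had 33.7% and 37.4% of Junb and 17.3% and 17.4% of Jun.

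**Figure D4:**
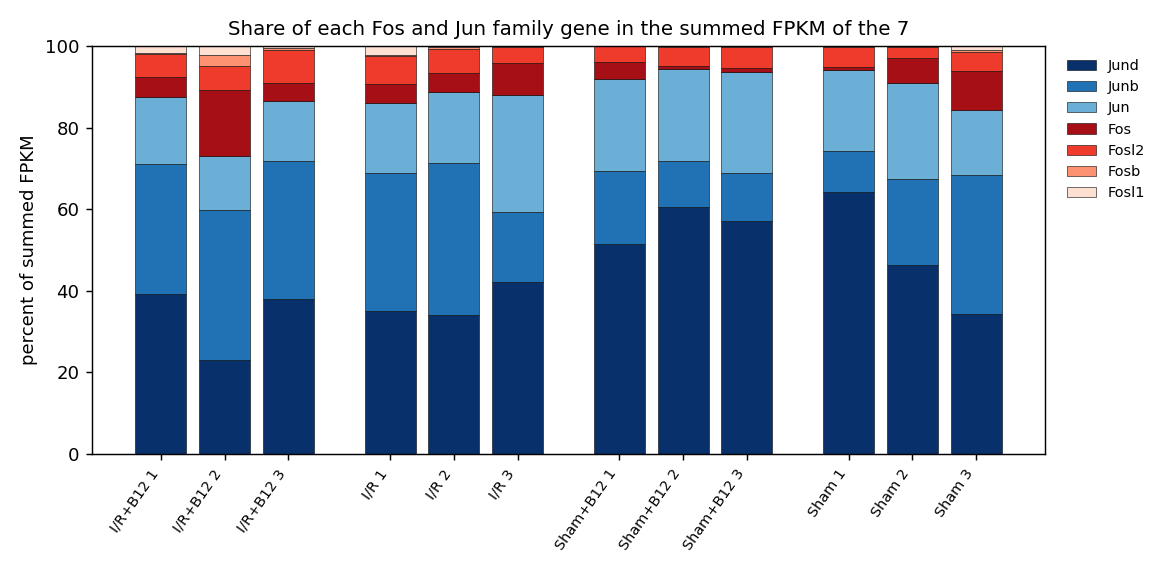
Share of each Fos and Jun family gene in the summed FPKM of the 7 genes, with 1 bar per library. Jund takes 51.5% to 60.5% in the Sham+B12 bars and 23.1% to 39.2% in the I/R+B12 bars, where Junb and Fos are larger. On normal water the Jund and Junb shares of the I/R and Sham bars overlap.

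Genes around AP-1 were followed in lists by role, in I/R+B12 against Sham+B12. Their counts stand beside 6.78% of all tested genes called higher and 3.62% called lower. Of 24 tested AP-1 target genes 10 were called higher and 0 lower, with a median of 2.26 (all tested genes -0.02). The members named are Plaur, the urokinase receptor, Mmp14, a membrane-bound matrix protease, and the neutrophil chemokines Cxcl2 and Cxcl1. Plaur had 26.4, 111.8 and 25.2 FPKM in I/R+B12 hearts, against 1.99, 2.04 and 1.48 FPKM in Sham+B12 hearts, a difference of 3.94 (limma adjusted p = 0.0236). Mmp14 rose by 1.86 (adjusted p = 0.0241), Cxcl2 by 5.82 and Cxcl1 by 5.78 (adjusted p = 0.0250 for both). Plaur, Cxcl1 and Cxcl2 were highest in I/R+B12 2, as the AP-1 genes were.

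Among 28 tested bZIP partners and relatives, 5 were called higher and 1 lower, with a median of 0.35. Atf4, which drives the amino acid and unfolded protein responses, rose by 1.72 ± 0.27 (SE, limma adjusted p = 0.0155), with 70.2, 166.2 and 97.3 FPKM in I/R+B12 hearts, against 32.8, 30.8 and 29.3 FPKM in Sham+B12 hearts. Nfil3, a repressor linked to the clock and to cytokines, rose by 2.17 (adjusted p = 0.0231), and Mafg, another small Maf gene, by 0.70 (adjusted p = 0.0280). The gene called lower, named after its values were seen, was Atf5, at -0.78. Averaged over both waters 8 of the 28 were called higher and 0 lower, where 8.36% of all genes were called higher, led by Atf4 (1.11), Mafg (0.53) and Xbp1 (0.92), a factor of the unfolded protein response.

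Kinases and other regulators of AP-1 were followed in the same way. Of 27 tested MAP kinases 3 were called higher and 1 lower, with a median of -0.06, which is near the shares of all genes. Map2k3, an activator of p38, rose by 1.25 (limma adjusted p = 0.0236), Map3k3 by 0.50 (adjusted p = 0.0276) and Mapk8, which encodes JNK1, by 0.58 (adjusted p = 0.0361). The kinase called lower, likewise named after its values were seen, was Map2k6, at -1.06 (adjusted p = 0.0498). Of 6 tested genes of SRF and its cofactors 1 was called higher and 0 lower (median 0.01), namely Elk4, at 0.67 (adjusted p = 0.0375); Srf itself was at 0.23 (adjusted p = 0.391) and Elk1 at -0.33 (adjusted p = 0.154). Of 8 tested MAP kinase phosphatases 1 was called higher and 0 lower (median 0.55). Dusp5, a nuclear phosphatase of ERK, rose by 2.20 (adjusted p = 0.0283), while Dusp1 was at 1.49 (adjusted p = 0.0633) and Dusp6 at 0.66 (adjusted p = 0.131). Of 8 tested genes for turnover of AP-1 mRNA and protein none was called (median 0.19; 3 higher and 0 lower at an unadjusted p under 0.05). The 3 with the smallest p were Itch, a ubiquitin ligase of Jun proteins, at 0.42 (adjusted p = 0.0683), Zfp36l2 at 0.57 (adjusted p = 0.0685) and Zfp36 at 1.38 (adjusted p = 0.0744), both of which bind AU-rich elements and speed mRNA decay.

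**Figure D5:**
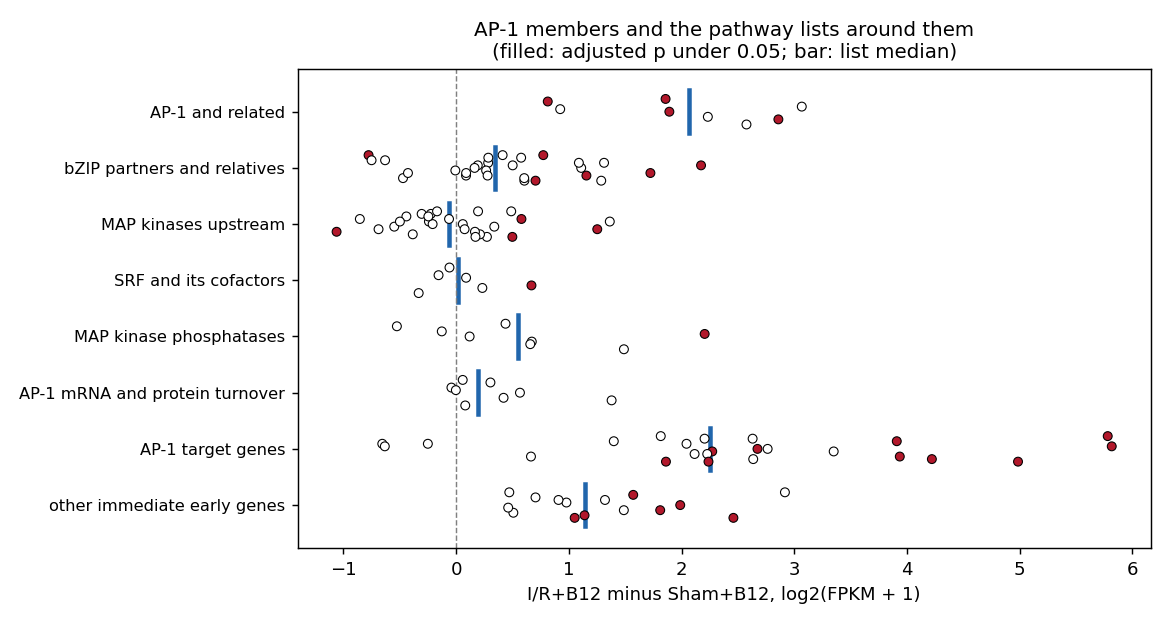
Difference of I/R+B12 minus Sham+B12 in log2(FPKM + 1) for every tested gene of the AP-1 members and of 7 lists around them, with 1 point per gene, filled where the adjusted p was under 0.05, and a bar at the list's median. The medians are 2.06 for the AP-1 members and 2.26 for their targets, and between -0.06 and 0.55 for the partners, kinases, SRF genes, phosphatases and turnover genes.

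Markers of some other cells also differed in I/R+B12 against Sham+B12, where 6.78% of all tested genes were called higher and 3.62% lower. All 10 neutrophil markers were in the table, 8 were tested and 3 were called higher in I/R+B12 against Sham+B12; their summed level was 742, 2123 and 108 FPKM in I/R+B12 hearts, against 0.86, 35.1 and 5.77 FPKM in Sham+B12 hearts, and no marker was at 0 throughout a group. The sum of 10 inflammatory monocyte and macrophage markers, of which 2 of 10 tested were called higher, was 360, 446 and 69.7 FPKM in I/R+B12 hearts, against 25.2, 40.6 and 31.6 FPKM in Sham+B12 hearts. I/R+B12 2 was highest in both sums, as it was for the 9 AP-1 genes. I/R+B12 3 had far lower sums than I/R+B12 1, while among the AP-1 genes it was lower than I/R+B12 1 for Fos, Fosl1, Jun, Junb, Jund and Atf3 and higher for Fosb, Fosl2 and Maff. In the library labelled I/R 3, with a neutrophil sum of 16, Fos (11.2 FPKM), Atf3 (7.42 FPKM) and Jun (40.7 FPKM) were near or above I/R 1 and 2. Fosb (0.42 FPKM) lay between I/R 1 and 2. Junb, Fosl1, Fosl2 and Maff were the lowest of the 3. Jund was also lowest there, but nearly equal to I/R 2 (59.9 against 60.2 FPKM). Of 9 resident macrophage markers 1 was called lower, with sums of 158 to 345 FPKM in I/R+B12 hearts, against 317 to 413 FPKM in Sham+B12 hearts. Of 10 cardiomyocyte markers 0 were called (2 lower at an unadjusted p under 0.05 by limma), with sums of 50680 to 71010 FPKM in I/R+B12 hearts, against 67750 to 73220 FPKM in Sham+B12 hearts. Among the other marker lists 1 of 6 endothelial markers was called higher, 1 of 6 smooth muscle and pericyte markers lower, and none of 7 fibroblast, 5 erythroid and 4 atrial markers. The part of these cells in the AP-1 differences was not tested.

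The genes whose levels over the 12 libraries were most like the mean of the 8 tested AP-1 genes were listed by Pearson's r of log2(FPKM + 1), given as a description of libraries that share their groups. They were Sdc4 (r = 0.983), a syndecan of the cell surface, Igfbp3 (0.975), which binds insulin-like growth factors, Icam1 (0.975), an adhesion molecule for leukocytes, Rnd1 (0.973), Nts (0.972), Ell2 (0.970), Mast4 (0.969) and Gnl3 (0.969). Sdc4 had 19.9, 73.8 and 20.1 FPKM in I/R+B12 hearts, 19.4, 16.4 and 8.76 FPKM in I/R hearts, 6.18, 5.35 and 5.08 FPKM in Sham+B12 hearts and 5.63, 7.17 and 14.0 FPKM in Sham hearts. Without I/R+B12 2 the r of Sdc4 over 11 libraries was 0.963, and it then ranked 8 among all genes compared, while the other 7 ranked between 23 and 86.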

How the data were processed

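RNA was measured in 12 mouse hearts. Per the submitters' processing notes HISAT2, StringTie and the build mm10 were used; versions and the annotation release are not given in the sources used here. The authors deposited FPKM for 55487 genes, per the file's name; their 4 group-mean columns were not used. The steps between low values of single-transcript genes were whole fragments (within 0.15 of 1 fragment in 81.6% to 87.5% of low values) for lengths shortened by 250 to 270 nt, which gave the depth estimates. These cover counting error only.

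From there, log2(FPKM + 1) of the 13001 genes that reached 1 FPKM in 3 libraries or more was fitted with limma 3.58.1 (R 4.3.3, variance trend), a mean per group and no block. Tests were two-sided, with Benjamini-Hochberg adjustment within each comparison over all tested genes. The fit was tested on simulated data, with values drawn independently for each gene and no outlying library. That test therefore does not cover the dependence of the calls on single libraries. The limma p-values set a difference against the spread between these libraries, which was estimated over all 4 groups. Gene coordinates come from GENCODE M21.

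The AP-1 genes and the lists were chosen with earlier results of these data known. Named genes are all 9 AP-1 genes, the 3 genes of smallest p per pathway list in I/R+B12 against Sham+B12, up to 3 called genes per list in other comparisons, and the 8 genes of most like pattern. Mapk8, Srf, Elk1, Dusp1 and Dusp6 come under that rule too. The alternatives were other pseudocounts, filters and scalings, the compared groups alone, no trend, library weights, a replicate block and left-out libraries. Figures were drawn with matplotlib 3.10.9.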

Additional observations from a re-analysis of the deposited data

How the results depend on the processing

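The number of AP-1 genes called in I/R+B12 against Sham+B12 was 4. It was 1 with the compared groups alone (where Fosl1 was not tested), 0 with no filter, and 2 with a replicate block, and it ran from 0 to 8 over the fits without 1 library. For both waters together it was 2; it was 0 with no filter, 8 with library weights (whose estimation stopped before full convergence; 4736 genes in all), 4 with Sham 3 and I/R 3 left out, 5 with I/R+B12 2 left out as well, and 0 to 7 without 1 library. In I/R against Sham it was 0, with 4 under library weights (4411 genes in all), 3 without I/R+B12 2, Sham 3 and I/R 3 (319 genes in all), and 0 to 0 without 1 library. In I/R+B12 against I/R it was 0, with 1 under library weights (4325 genes in all) and 0 to 1 without 1 library. Sham+B12 against Sham and the interaction stayed at 0 in all fits. No called difference changed sign. The cause of these changes was not tested, except that a fit with no filter tests more genes. Over all genes the calls in I/R+B12 against Sham+B12 ran from 0 to 3833 without 1 library, 351 with the compared groups alone, 262 with no filter and 3082 with library weights, against 1352. The labels state no pairing by replicate number. The mean r of 18 same-number pairs was 0.01 (from -0.41 to 0.39), and 5 of 12 libraries were most like their own number. These values cannot show whether libraries of the same number shared a day or a batch. Depth limits Fosl1 in Sham+B12 hearts, listed at 0, 0 and 0.05 FPKM.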

Other observations

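Of 15 other tested immediate early genes, 6 were called higher and 0 lower in I/R+B12 against Sham+B12, where 6.78% of all genes were called higher and 3.62% lower. Their median was 1.14. The 3 with the smallest p were Klf4, a zinc finger factor of vessels and macrophages, at 1.05 ± 0.20 (SE, limma adjusted p = 0.0226), Csrnp1 at 1.81 (adjusted p = 0.0344) and Ier2 at 1.57 (adjusted p = 0.0379). Klf4 had 30.3, 26.5 and 25.8 FPKM in I/R+B12 hearts, against 10.8, 15.2 and 12.6 FPKM in Sham+B12 hearts. Unlike the AP-1 genes, it was not highest in I/R+B12 2. Csrnp1 had 11.4, 51.9 and 36.5 FPKM in I/R+B12 hearts, against 6.47, 7.81 and 7.69 FPKM in Sham+B12 hearts, so that I/R+B12 3 was high for it as well. Averaged over both waters 7 of the 15 were called higher, where 8.36% of all genes were, led by Klf4 (0.80) and Klf2 (0.57), and Ier5 was at 0.88 (adjusted p = 0.0389).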
